A study of Mus musculus with 2 samples.

Results

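The Fc receptors for IgE and IgG were followed through the withdrawal of nuclear Hoxa9 from transformed mouse bone marrow progenitors. The group was set by gene symbol and held 7 genes, Fcer1a, Fcer1g, Fcgr1, Fcgr2b, Fcgr3, Fcgr4 and Fcer2a. All 7 were found among the 23235 rows of the deposited RNA sequencing table. The cells were lineage-depleted marrow progenitors of C57B6 mice, and retroviruses had given them HA-Hoxa9-ER and Flag-Meis1 from the MIGR1 vector. Hoxa9-ER is a fusion of the homeobox factor Hoxa9 to an estrogen receptor domain that binds the ligand, and it stays nuclear only with 4-hydroxytamoxifen (4OHT). Meis1 is a homeobox partner of Hoxa9, and both viruses and IL3 were present in each condition. Cells grown continuously in 100 nM 4OHT were washed 3 times and then kept for 72 h either in 100 nM 4OHT or in the solvent ethanol (EtOH). The comparison asks which genes change when nuclear Hoxa9-ER is lost.

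The 2 samples, 1 per condition, each combined 2 biological replicates into 1 FPKM value per gene (fragments scaled to transcript length and to the size of the library). FPKM values below therefore carry no replicate error, and only the authors' own test could draw on the spread between replicates. The measure of change is log2((FPKM EtOH + 1)/(FPKM 4OHT + 1)). A positive value is higher in EtOH, and the added 1 understates the change of low genes. "Called", "rose" and "fell" mean that the authors' deposited table lists a q-value no higher than 0.05. Summed over all rows, FPKM came to 544802 (4OHT) and 591496 (EtOH), and read totals cannot be had from it. The labelled cell type, a haematopoietic progenitor, was checked on 10 markers: Cd34 stood at 124 FPKM in 4OHT and 45.8 FPKM in EtOH, and Kit at 7.39 and 10.1 FPKM. Of these markers 5 fell and 2 rose, where 10.5% of all genes the authors tested fell and 12.0% rose. In bulk RNA, more cells of a type and more RNA per cell cannot be told apart.

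Fc receptors bind the constant part of antibodies and tie antibody recognition to the responses of myeloid cells. The high-affinity IgE receptor of basophils and mast cells, FcεRI, has an IgE-binding alpha chain (Fcer1a), an amplifying beta chain (Ms4a2) and the signalling gamma chain (Fcer1g). The same gamma chain carries the activating motif for the mouse IgG receptors CD64 (Fcgr1), CD16 (Fcgr3) and FcγRIV (Fcgr4). CD32b (Fcgr2b) is the inhibitory IgG receptor and carries its own inhibitory motif, called an ITIM. CD23 (Fcer2a) is a lectin-type, low-affinity IgE receptor best known from B cells.

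Of the 7 Fc receptor genes, 3 rose after 4OHT withdrawal and none fell. The genes that rose were Fcer1a, Fcgr3 and Fcgr2b. The gamma chain gene Fcer1g, Fcgr4 and Fcgr1 were tested and not called, and Fcer2a was not tested by the authors. Among the 11865 genes tested, 22.5% were called in either direction, 12.0% higher and 10.5% lower in EtOH. Set against it, 3 of 6 tested members were called, a count too small to read as a property of the family. By value alone 6 members were higher in EtOH and 1 was lower. The median log2 change over all 7 members was 0.15. It was 0.73 over the 5 members of at least 1 FPKM in either condition, a group that Fcer1a entered only through its EtOH value. Over the 11022 genes of that level the median was -0.06, with quartiles of -0.25 and 0.18.

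Calls depended little on the authors' threshold and more on a rule of size. At a q-value of at most 0.01, where 16.1% of tested genes were called, the same 3 members passed. They also passed when a ratio of at least 1.5 was required as well, a rule met by 17.1% of tested genes. At 2-fold on the log2(FPKM + 1) scale, met by 7.49% of genes of at least 1 FPKM, only Fcgr3 passed. Fcer1a, whose EtOH level was 3.05 times its 4OHT level, missed this rule because of the added 1.

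**Figure D1:**
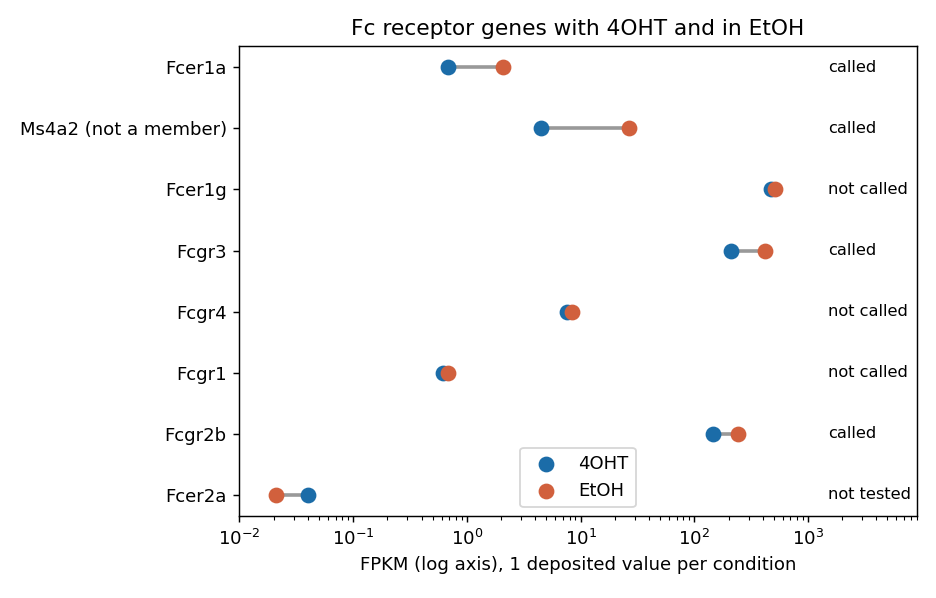
FPKM of the 7 Fc receptor genes and of the FcεRI beta chain gene Ms4a2 (vertical axis) on a log axis, with 1 deposited value per condition joined by a line and the authors' call at the right. Fcer1a, Ms4a2, Fcgr3 and Fcgr2b are called and higher in EtOH, while the 2 points of Fcer1g, at 468 and 513 FPKM, nearly coincide.

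The members spanned a wide range of levels, and their order was the same in both conditions. Fcer1g stood highest, followed by Fcgr3, Fcgr2b, Fcgr4, Fcer1a, Fcgr1 and Fcer2a. Without replicate values it cannot be said which neighbours in this order differ beyond their spread. Fcer1g, Fcgr3 and Fcgr2b together made up 98.9% of the summed FPKM of the 7 genes in 4OHT and 99.1% in EtOH. That sum was 831 FPKM in 4OHT and 1186 FPKM in EtOH.

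The alpha chain of the IgE receptor was low in both conditions and rose. Fcer1a, on chromosome 1 at 175151402 to 175157360 (mm9), stood at 0.677 FPKM in 4OHT and 2.07 FPKM in EtOH. The EtOH level was thus 3.05 times the 4OHT level, and the authors' deposited table gives a q-value of 0.00782. Its log2 change was 0.87 with 1 added to the FPKM values, 1.48 with 0.1 added and 0.32 with 5 added. The size of this change thus varied with the added constant, as it does for low genes.

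The beta chain gene Ms4a2, which is not one of the 7, rose from 4.46 FPKM in 4OHT to 26.7 FPKM in EtOH (log2 change 2.34). Its q-value is listed as 0 in the authors' deposited table. The gamma chain gene Fcer1g, on chromosome 1 at 173159703 to 173164480 (mm9), stood at 468 FPKM in 4OHT and 513 FPKM in EtOH. Its log2 change was 0.13, and it was not called (the authors' deposited table gives a q-value of 0.602). The 3 genes of 1 receptor complex thus differed widely in level and in change. Per length of transcript, Fcer1g RNA was 692 times as abundant as Fcer1a RNA in 4OHT and 248 times in EtOH. The ratio of Ms4a2 to Fcer1a was 6.59 in 4OHT and 12.9 in EtOH.

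The sequences before the start sites of the FcεRI genes are shown because Fcer1a and Ms4a2 rose while Fcer1g was not called, with that of Fcgr3 as the IgG receptor gene of the largest change. GATA factors and PU.1 are known regulators of Fcer1a and of basophil and mast cell genes. Each line gives the 250 bases before the start site from RefSeq on GRCm38.p6, a later build than the mm9 of the expression table. The bases are read 5′ to 3′ on the gene's own strand, the minus strand in all 4. RefSeq gave 2 start sites for Fcgr3 and 3 for Fcer2a, and only the most upstream one was used. Capitals mark a GATA motif (AGATAA or TGATAA) or a PU box (GAGGAA), each searched on both strands, with no overlap between matches. The windows lie at chr1:173227230-173227479, chr19:11623720-11623969, chr1:171234350-171234599 and chr1:171059404-171059653 of GRCm38.p6.
Fcer1a: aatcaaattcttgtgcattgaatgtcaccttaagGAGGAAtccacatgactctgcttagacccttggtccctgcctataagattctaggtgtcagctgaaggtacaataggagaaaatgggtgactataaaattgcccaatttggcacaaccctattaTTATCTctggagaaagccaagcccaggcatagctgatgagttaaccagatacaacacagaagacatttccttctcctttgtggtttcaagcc
Ms4a2: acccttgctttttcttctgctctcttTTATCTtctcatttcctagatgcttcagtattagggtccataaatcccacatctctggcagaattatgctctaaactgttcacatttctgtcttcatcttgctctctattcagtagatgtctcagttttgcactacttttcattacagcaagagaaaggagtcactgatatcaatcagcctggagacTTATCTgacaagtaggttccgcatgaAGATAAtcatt
Fcer1g: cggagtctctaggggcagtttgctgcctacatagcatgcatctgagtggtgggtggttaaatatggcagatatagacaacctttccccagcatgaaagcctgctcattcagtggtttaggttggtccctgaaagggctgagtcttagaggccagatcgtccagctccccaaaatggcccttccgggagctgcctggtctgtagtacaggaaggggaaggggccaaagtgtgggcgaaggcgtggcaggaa
Fcgr3: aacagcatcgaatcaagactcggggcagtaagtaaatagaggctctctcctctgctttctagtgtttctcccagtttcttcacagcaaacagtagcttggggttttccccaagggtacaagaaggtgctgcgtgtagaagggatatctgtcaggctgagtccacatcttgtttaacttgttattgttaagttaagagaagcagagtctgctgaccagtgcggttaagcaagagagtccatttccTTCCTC

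The Fcer1a window held 1 GATA match, at positions -92 to -87 from the start site, and 1 PU box, at -216 to -211. The Ms4a2 window held 3 GATA matches and no PU box, and the Fcer1g window held neither. Of the 32851 windows of this length in the RefSeq table, 16.6% held a GATA match and 23.3% a PU box. Among the other members, the windows of Fcgr1, Fcgr3 and Fcgr4 held 1 PU box each, Fcgr2b and Fcer2a had neither motif, and none of these 5 held a GATA match. The motif TGATNNAT, a form bound by Hox and Pbx proteins and found in 7.68% of windows, matched once in Ms4a2 and in no member. The Meis motif TGACAG, in 15.9% of windows, matched once in Fcgr1 and once in Fcgr3. The C/EBP motif TTNNGNAA, in 36.8% of windows, matched at 2 places in Fcgr3 and once each in Fcer1a and Fcgr4. These matches are letters in a window and do not show binding. The part of these motifs in the changes was not tested, and the printed windows were chosen with the changes known.

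Levels of the factors were read from a list of 18 transcription factors linked to Fc receptor genes or to the cells that carry them. Of these 8 rose, 3 fell and 7 did not pass, with a median log2 change of 0.16. Called were 61.1% of the 18, against 22.5% of all tested genes. Here and below, the genes set against that share, markers apart, are those of at least 1 FPKM. The tested genes include some under 1 FPKM, and a share without them was not computed. Gata1, the erythroid, mast cell and eosinophil GATA factor, rose from 1.60 to 10.6 FPKM (log2 change 2.15). Gata2, needed in basophil and mast cell precursors, rose from 71.1 to 122 FPKM (0.77), and Spi1, the gene of PU.1, listed under its older symbol Sfpi1, rose from 77.5 to 167 FPKM (1.10). Cebpe, a factor of late granulocytes, rose from 93.6 to 218 FPKM (1.21). Zfpm1, the GATA cofactor FOG-1, fell from 11.4 to 4.68 FPKM (-1.13), and Irf8, a monocyte and dendritic cell factor, fell from 4.09 to 0.751 FPKM (-1.54). Elf1 fell from 36.3 to 27.2 FPKM (-0.40). Yy1, at 51.0 and 47.6 FPKM (-0.10), was not called. Irf8 met the level of 1 FPKM in 4OHT alone, so it had to be lower in EtOH. Gata2, Spi1, Elf1 and Yy1 were named after their values were seen. The part of these factors in the changes of the Fc receptor genes was not tested. Values in parentheses here and below are log2 changes.

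Markers of basophils, mast cells and eosinophils were read beside Fcer1a and Ms4a2. Of 6 basophil markers 5 rose and none fell, and their summed level was 717 FPKM in 4OHT and 3317 FPKM in EtOH. They included the protease gene Mcpt8, at 183 and 1685 FPKM, and Cd200r3, at 18.9 and 158 FPKM, while Itga2 was listed at 0 in 4OHT and at 0.0252 FPKM in EtOH. Of 8 mast cell markers 3 rose and none fell, and their sum was 552 FPKM in 4OHT and 1574 FPKM in EtOH. The mast cell receptor gene Mrgprb2 was listed at 0 in both conditions, Mcpt4 at 0 in 4OHT and 0.0256 FPKM in EtOH, Tpsab1 stood at 0.106 and 0.412 FPKM, and Kit, at 7.39 and 10.1 FPKM, and Mitf were not called. Of 6 eosinophil markers 5 rose and none fell, with sums of 134 and 4687 FPKM. The part of these cell types in the rise of Fcer1a was not tested. For scale, 12.0% of all tested genes rose and 10.5% fell.

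The activating IgG receptor gene Fcgr3 had the largest log2 change among the members with 1 added to the FPKM values, and Fcer1a had the largest with 0.1 added. Fcgr3 lies on chromosome 1 at 172981300 to 172989534 (mm9) and encodes CD16, a low-affinity receptor for IgG complexes. Its level was 209 FPKM in 4OHT and 421 FPKM in EtOH. The log2 change was 1.01, and the q-value given in the authors' deposited table was 3.41e-10. Among the genes of at least 1 FPKM, 94.9% had a lower log2 change than Fcgr3. By level it moved from rank 353 to rank 198 of all rows.

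The inhibitory receptor gene Fcgr2b, on chromosome 1 at 172890689 to 172906202 (mm9), rose as well. It stood at 145 FPKM in 4OHT and 241 FPKM in EtOH, and the log2 change was 0.73. The authors' deposited table gives it a q-value of 2.30e-05. The activating and the inhibitory gene both rose, and the ratio of Fcgr3 to Fcgr2b was 1.44 in 4OHT and 1.75 in EtOH. Whether that ratio differed between conditions could not be tested with 1 value per condition.

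The other activating IgG receptor genes were lower in level and were not called. Fcgr4, on chromosome 1 at 172949057 to 172959892 (mm9), encodes the mouse receptor FcγRIV. It stood at 7.54 FPKM in 4OHT and 8.47 FPKM in EtOH (0.15), and the authors' deposited table gives a q-value of 0.730. Fcgr1, on chromosome 3 at 96086832 to 96097892 (mm9), encodes the high-affinity receptor CD64 of monocytes and macrophages. It stood at 0.612 FPKM in 4OHT and 0.685 FPKM in EtOH (0.06), and the authors' deposited table gives a q-value of 0.849. Fcgr3 RNA was 27.7 times as abundant per length as Fcgr4 RNA in 4OHT and 49.7 times in EtOH. A missed call does not show that the levels of Fcgr4, Fcgr1 and Fcer1g stayed the same.

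**Figure D2:**
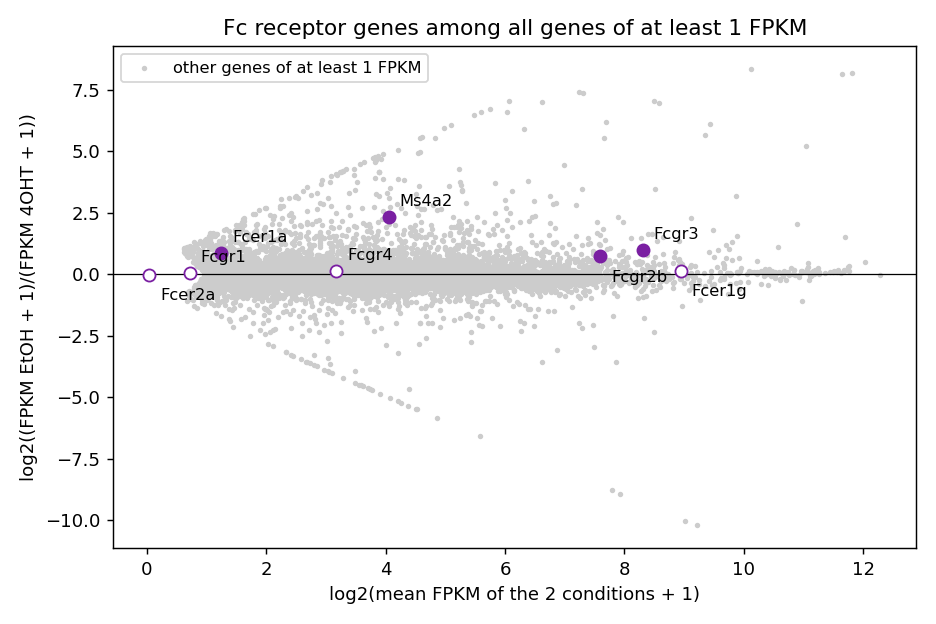
Each gene of at least 1 FPKM in either condition (grey) by its log2 mean level (horizontal) and its log2 change in EtOH against 4OHT (vertical), with Ms4a2 and all 7 Fc receptor genes, 2 of them under 1 FPKM, in purple and filled where called. Fcgr3 and Fcgr2b lie above the bulk of genes at high level, with log2 changes of 1.01 and 0.73, and Fcer1g lies near 0 at 0.13.

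CD23 RNA was close to nothing in both conditions. Fcer2a, on chromosome 8 at 3681737 to 3694174 (mm9), stood at 0.0404 FPKM in 4OHT and 0.0211 FPKM in EtOH, and the authors did not test it. B cell markers were low as well: the sum of 8 of them was 1.15 FPKM in 4OHT and 1.78 FPKM in EtOH, of which Cd79b made up 1.10 and 1.63 FPKM. The B cell genes Ms4a1, Pax5 and Blk were listed at 0 in both conditions. The level of Fcgr2b, which B cells also use, was thus measured with these 3 B cell markers at 0.

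Neutrophil markers rose beside Fcgr3 and Fcgr2b, while monocyte and macrophage markers were mixed. All 9 neutrophil markers rose, and their sum was 130.5 FPKM in 4OHT and 16268 FPKM in EtOH, most of it from S100a8 at 7149 FPKM and S100a9 at 6386 FPKM. Of 11 monocyte and macrophage markers 6 rose and 1 fell, and their sum was 265 FPKM in 4OHT and 194 FPKM in EtOH. Emr1, the gene of F4/80, made up most of both sums and fell from 202 to 102 FPKM. Cx3cr1, C1qa and Mertk stayed under 0.3 FPKM in both conditions. None of 6 NK cell markers reached 1 FPKM or was called, and their sum was 0.405 FPKM in 4OHT and 0.601 FPKM in EtOH. Among the remaining marker lists, 2 of 7 dendritic cell markers rose, 1 of 7 T cell and 1 of 6 megakaryocyte markers fell, and of 4 matched erythroid markers 1 rose and 1 fell. Their sums were 22.5 and 28.9 FPKM for dendritic cells, 18.2 and 22 FPKM for T cells, 103 and 92.7 FPKM for megakaryocytes and 4.64 and 2.33 FPKM for erythroid cells. The part of these cell types in the rises of Fcgr3 and Fcgr2b was not tested. Marker counts here stand against 12.0% of all tested genes that rose and 10.5% that fell.

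Part of the Fcgr3 and Fcgr2b transcripts is identical, which bears on how reads could be assigned. Of the 50-base words in Fcgr3 transcripts of GENCODE M21, 9.58% also occur in transcripts of other genes, all of them in Fcgr2b. Of the Fcgr2b words 4.38% occur elsewhere, 2.92% in Fcgr3. Words of Fcer1a, Fcer1g, Fcgr1 and Fcgr4 occurred in no other gene, and those of Fcer2a in 1.16% of cases. Over 735 aligned coding bases, Fcgr2b and Fcgr3 were 87.3% identical, against 68.1% for Fcgr3 and Fcgr4 over 717 bases. The longest identical coding run of Fcgr2b and Fcgr3 is shown because a read inside it cannot be assigned to 1 of them. It is 129 bases long, covers coding bases 263 to 391 of Fcgr3 and 278 to 406 of Fcgr2b, and in Fcgr3 joins exons 3 and 4. In GRCm38 it spans chr1:171054167-171057792 on the minus strand, with the intron between these exons left out here.
Fcgr3 and Fcgr2b shared run: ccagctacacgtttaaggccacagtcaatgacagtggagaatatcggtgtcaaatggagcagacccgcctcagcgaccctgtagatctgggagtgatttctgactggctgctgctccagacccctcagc

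The levels of Fcgr3 and Fcgr2b are uncertain to the extent that reads from this shared part were split between them. No source used here says how such reads were counted.

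The gamma chain serves several binding chains, so its level was set beside theirs. The summed FPKM of Fcer1a, Fcgr1, Fcgr3 and Fcgr4 was 218 in 4OHT and 432 in EtOH, almost all of it from Fcgr3. Fcer1g RNA was 2.15 times that sum in 4OHT and 1.19 times in EtOH. The summed RNAs of these members therefore approached the level of the gamma chain RNA in EtOH, a comparison of 1 value per condition with no test. Other receptors that use the gamma chain, such as Clec4e at 126 FPKM in 4OHT and 31.0 FPKM in EtOH, were left out of this sum. In the list of other activating receptors, some of which use this chain, 13 rose and 2 fell. With such receptors in the sum the ratios would differ. RNA ratios do not give the ratio of the proteins.

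Fcgr2b, Fcgr4, Fcgr3 and Fcer1g lie in this order within 274 kb of chromosome 1, and Fcer1a lies 1987 kb beyond Fcer1g. The members that rose and those not called alternate along the cluster: Fcgr4 lies between Fcgr2b and Fcgr3, 42.9 kb from the first and 21.4 kb from the other. Within 200 kb of the cluster genes were 19 other genes of at least 1 FPKM. Of these 1 rose, 2 fell and 16 did not pass, and their median log2 change was -0.14. Over all tested genes 22.5% were called. B4galt3, a galactosyltransferase gene, rose from 13 to 19.6 FPKM (0.55). Pcp4l1, between Fcgr3 and Fcer1g, fell from 6.03 to 0.363 FPKM (-2.37), and Tomm40l, near Fcer1g and deposited with the same interval as Nr1i3, fell from 11.8 to 8.16 FPKM (-0.48). No member's deposited locus overlapped another row of at least 1 FPKM.

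**Figure D3:**
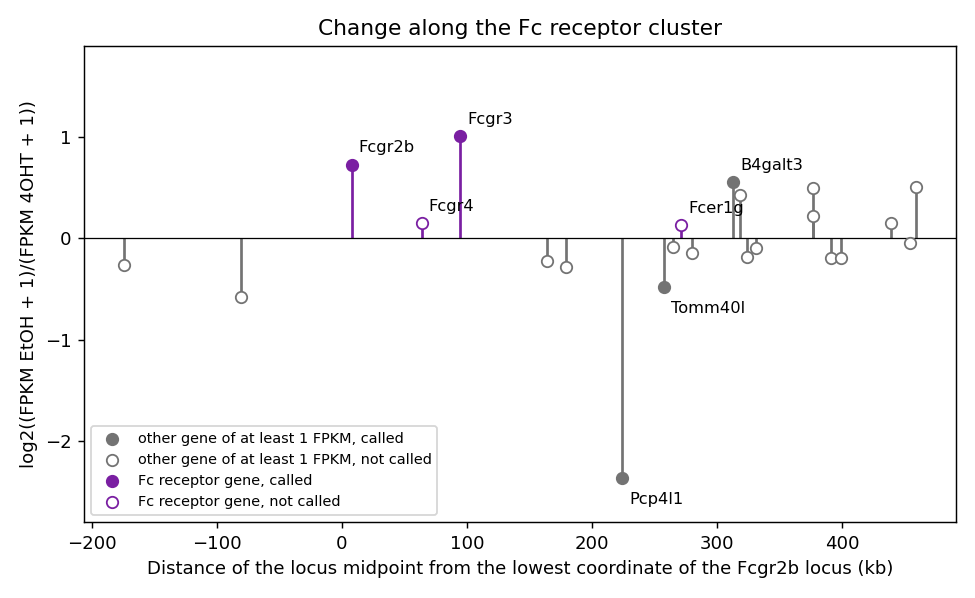
Log2 change in EtOH against 4OHT (vertical) of the Fc receptor genes of the chromosome 1 cluster (purple) and of other genes of at least 1 FPKM within 200 kb (grey), by distance of the locus midpoint in kb from the lowest coordinate of the Fcgr2b locus. Filled points are called: Fcgr2b and Fcgr3 are raised, at 0.73 and 1.01, with Fcgr4 between them at 0.15, and Pcp4l1 is lowest at -2.37.

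Near the other members 4 of 15 genes of at least 1 FPKM were called, against 22.5% of all tested genes. Aim2, a DNA sensor gene within 200 kb of Fcer1a, fell from 7.60 to 5.18 FPKM (-0.48). Near Fcer2a, 1810033B17Rik rose from 2.44 to 28.8 FPKM (3.12), 2400009B08Rik from 13.3 to 53.2 FPKM (1.92) and Stxbp2, which takes part in granule release, from 61.3 to 79.8 FPKM (0.37). No gene within 200 kb of Fcgr1 was called.

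The genes with values most like those of Fcgr3 and Fcer1g were found by distance between the pairs of log2(FPKM + 1) levels over the 2 conditions. Nearest to Fcgr3 was Meis1, which a retrovirus also carried, at a distance of 0.21. Meis1 rose from 242 to 418 FPKM, so its RNA level was not equal in the 2 conditions. Tmbim6, the adaptor gene Tyrobp, Aldh2 and the chemokine gene Ccl3 followed, at distances of 0.32 to 0.36, and each of them rose as well. Nearest to Fcer1g were Ly6e, Arpc1b, Tagln2, Hnrnpa2b1 and Gapdh, at distances of 0.07 to 0.15, and none of these 5 was called. Over 2 conditions such likeness only says that the levels were close.

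The signalling adaptors did not move as 1 group. Of the 8 adaptor and subunit genes listed, 6 reached 1 FPKM, of which 2 rose and 4 did not pass. The share called among these 6 was 33.3%, against 22.5% of all tested genes. Besides Ms4a2, Tyrobp rose. It encodes DAP12, an adaptor with an activating motif like that of the gamma chain, and went from 210 to 533 FPKM (1.34). Hcst, the gene of DAP10, stood at 85.2 and 89.5 FPKM (0.07), Cd247 at 1.30 and 1.69 FPKM (0.23) and Cd79b at 1.10 and 1.63 FPKM (0.33), and none was called. The T cell chain Cd3e was listed at 0 in both conditions, and Cd79a stayed under 0.1 FPKM. Fcer1g and Tyrobp thus stood at 468 and 210 FPKM in 4OHT and at 513 and 533 FPKM in EtOH.

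**Figure D4:**
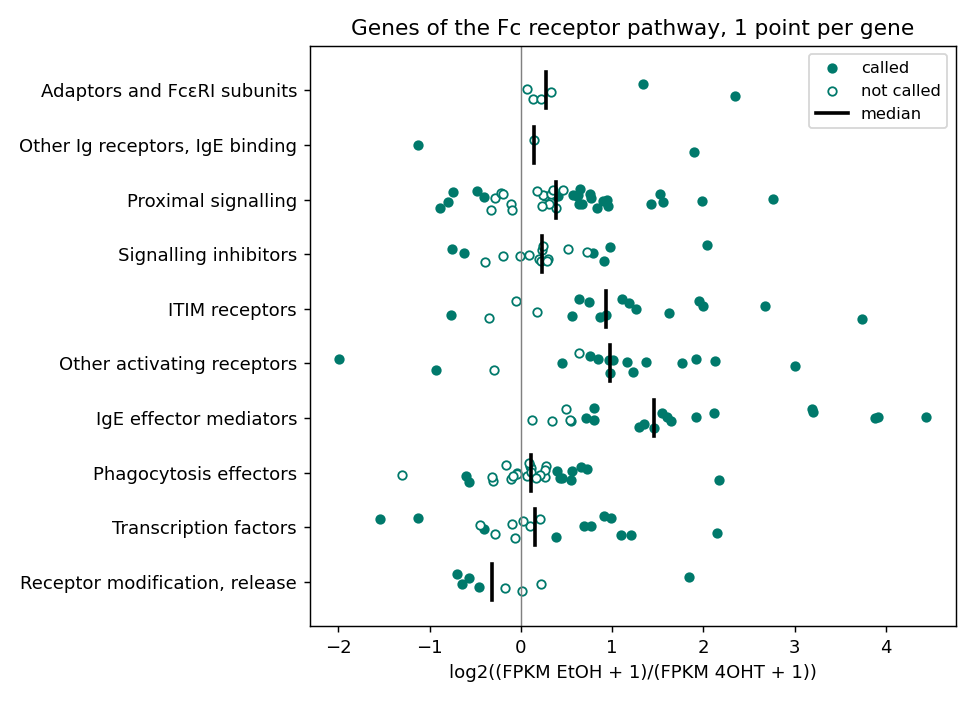
Log2 change in EtOH against 4OHT (horizontal) of the genes of at least 1 FPKM in 10 lists around the Fc receptors (vertical), 1 point per gene, filled where called, with a bar at the median. The lists of IgE effector mediators, ITIM receptors and other activating receptors have medians of 1.46, 0.93 and 0.98, and the list of receptor modification and release, Marcksl1 included, has a median of -0.31.

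Kinases and adaptors that act just after the receptors changed in both directions. Of 42 such genes 39 reached 1 FPKM, of which 19 rose, 5 fell and 15 did not pass, with a median of 0.39, and 0.37 over all 42. The filter was met in EtOH alone by 5 of them and in 4OHT alone by 1. Called were 61.5% of the 39, against 22.5% of all tested genes. Fgr, a Src family kinase, rose from 0.239 to 3.92 FPKM (1.99) and the protein kinase C gene Prkcb from 6.10 to 19.4 FPKM (1.53). Syk, the kinase that docks on phosphorylated gamma chains, rose from 25.6 to 44.1 FPKM (0.76). Lyn, the kinase that starts FcεRI signalling, stood at 20.2 and 26.7 FPKM (0.39) and was not called (q-value of 0.0564 per the authors' deposited table), and other genes held 13.4% of its words. Fyn, which acts beside Lyn, fell from 8.92 to 4.72 FPKM (-0.79). Syk, Lyn and Fyn were named after their values were seen.

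The list of inhibitors of Fc receptor signalling held 18 genes, some of which, such as Ptprc, are not inhibitors alone. Of these 18 genes 4 rose, 2 fell and 12 did not pass, 1 of them with a failed test, and the median was 0.23. Spry1, 1 of the 2 that fell, met the filter of 1 FPKM in 4OHT alone and had to be lower in EtOH. The share called was 33.3%, against 22.5% of all tested genes. Ptpn6, the phosphatase SHP-1 that ITIM receptors recruit, rose from 43.0 to 85.9 FPKM (0.98). Inpp5d, the lipid phosphatase SHIP-1 through which Fcgr2b acts, stood at 35.5 and 37.9 FPKM (0.09), was not called and was named after its values were seen. Ptprc, the CD45 phosphatase, rose from 33.9 to 64.5 FPKM (0.91), the adaptor gene Dok3 from 41.0 to 72.0 FPKM (0.80) and Rgs1, a regulator of G protein signals, from 5.48 to 25.6 FPKM (2.04).

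Other receptors with inhibitory motifs rose beside Fcgr2b. Of 19 ITIM receptor genes 17 reached 1 FPKM, of which 13 rose, 1 fell and 3 did not pass, with a median of 0.93, and 0.87 over all 19. The filter was met in EtOH alone by 3 of them. Called were 82.4% of the 17, against 22.5% of all tested genes. Clec4a2, an inhibitory lectin, rose from 0.160 to 14.5 FPKM (3.74), and Cd33, a sialic acid lectin, from 22.5 to 92.7 FPKM (2.00). The receptor Cd300lf went up from 5.77 to 42.3 FPKM (2.68), and the Rab37 locus, at 22.5 and 24.9 FPKM, overlaps it. Pirb, listed as Lilrb3, rose from 3.55 to 16.6 FPKM (1.95), and 34.0% of its 50-base words occur in other genes. Milr1, listed as Gm885, an inhibitory receptor of mast cells, fell from 3.63 to 1.72 FPKM (-0.77) and was singled out with its values known.

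The list of other activating receptors held mainly genes that signal through the gamma chain or DAP12. Of 24 genes 17 reached 1 FPKM, of which 13 rose, 2 fell and 2 did not pass, with a median of 0.98, and 0.70 over all 24. The filter was met in EtOH alone by Clec4n, Cd300ld and Trem2, which had to be higher there. Called were 88.2% of the 17, against 22.5% of all tested genes. Cd200r3, a basophil and mast cell receptor, rose from 18.9 to 158 FPKM (3.00), its relative Cd200r4 from 17.6 to 80.6 FPKM (2.13) and the lectin Clec5a from 4.57 to 20.1 FPKM (1.92). The lectins Clec4e and Clec4d, which use the gamma chain, fell. Clec4e went from 126 to 31.0 FPKM (-1.99) and Clec4d, named after its values were seen, from 9.76 to 4.66 FPKM (-0.93).

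Mediators that IgE-activated basophils and mast cells store or make had the highest median of the 10 lists. Of 24 genes 21 reached 1 FPKM, of which 17 rose, none fell and 4 did not pass, with a median of 1.46, and 1.32 over all 24. The filter was met in EtOH alone by 2 of them. Called were 81.0% of the 21, against 22.5% of all tested genes. The tryptase gene Tpsb2 rose from 10.2 to 242 FPKM (4.44), and the cytokine genes Il13, Il4 and Il6 rose by log2 changes of 3.91, 3.88 and 3.20. These genes are also markers or products of the cell types above and are made without IgE as well, and no IgE treatment is named for these cells.

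Of 30 genes of phagocytosis through IgG receptors 28 reached 1 FPKM, of which 8 rose, 2 fell and 18 did not pass, with a median of 0.11. The share called was 35.7%, against 22.5% of all tested genes. Pak1, a kinase downstream of Rac, rose from 2.48 to 14.7 FPKM (2.17), the GTPase gene Rac2 from 150.3 to 239 FPKM (0.66) and the phospholipase D gene Pld1 from 2.73 to 5.16 FPKM (0.72). Pla2g4a, the cytosolic phospholipase A2, fell from 37.1 to 24.1 FPKM (-0.60). Gsn, the actin-severing gelsolin, stood at 708 and 288 FPKM (-1.30) but had a failed test, and it was named after its values were seen.

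The list of genes that modify or release Fc receptors held 10 genes, of which 9 were matched and 8 reached 1 FPKM. Of these 1 rose, 4 fell and 3 did not pass, with a median of -0.31, and -0.17 over all 9. The share called among these 8 was 62.5%, against 22.5% of all tested genes. Adam17, a protease that sheds CD16, went down from 41.6 to 26.3 FPKM (-0.64), and Iah1, at 17.0 and 23.0 FPKM, lies across part of it. Adam10, the protease known for shedding CD23, stood at 45.9 and 46.5 FPKM (0.02), was not called and was named after its values were seen. Fut8, which adds core fucose to glycans, fell from 246 to 151 FPKM (-0.70). Furin, a protease that matures others, rose from 85.8 to 309.9 FPKM (1.84). Marcksl1, an actin-linked gene of the phagocytosis list that was placed here in error, fell from 48.4 to 32.4 FPKM (-0.57). Without it 1 gene rose, 3 fell and 3 did not pass, with a median of -0.17.

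Most of the other immunoglobulin receptor and receptor-like genes listed were near 0. Of 12 genes for other immunoglobulin receptors and IgE binding, 9 stayed under 1 FPKM in both conditions, and Fcamr, Fcrl6 and Fcmr, the last listed as Faim3, were listed at 0. Fcgrt, the neonatal Fc receptor that recycles IgG, fell from 4.98 to 1.74 FPKM (-1.13). Lgals3, the IgE-binding lectin galectin-3, rose from 47.3 to 179 FPKM (1.89). Trim21, a cytosolic antibody receptor, stood at 4.12 and 4.67 FPKM (0.15) and was not called.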

How the data were processed

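Column-purified, DNase-treated RNA went into TruSeq RNA libraries, per the labels' protocols. Cuffdiff 2.0.2, Bowtie2 2.0.0.7, CASAVA 1.8.2 and the mm9 build are named in the submitters' processing notes. Annotation, strand setting and scaling were not given in the sources used here. Per the file headers, the authors deposited 1 FPKM value per condition, a p-value, a q-value and an EtOH to 4OHT ratio. The deposited q-values matched a Benjamini-Hochberg adjustment of the p-values over tested rows to within 1.7e-06, and the ratio served only for an alternative count. No test of this work was possible with 1 value per condition.

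Levels, log2 changes (pseudocount 1) and counts were computed with pandas 2.3.3. The members and all 10 pathway and 12 marker lists were chosen with earlier results of these data known. Named were all members and adaptors, up to 4 called genes of the largest change per list, called neighbours within 200 kb, and the 5 nearest genes by level; a few genes of these lists are not reported here. Synonyms in a RefSeq gene table served to match older symbols. Deposited starts count from 0 and are printed from 1. Shared words used GENCODE M21, which had sequence for 97.5% of 282 genes; Lilrb4, Siglec5 and the Pira genes other than Pira2 were among those without one. Coding sequences were aligned with Biopython 1.88 in place of proteins. FPKM times length of short single-interval genes up to 1.2 kb had a lowest step of 0.0240 in 4OHT, shared by few genes, and no repeated step in EtOH, so depth is unknown and no counting interval is given. The 2-fold rule was run on simulated data with large changes, no noise and no low levels, which checks the code only.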

Additional observations from a re-analysis of the deposited data

How the results depend on the processing

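No paired analysis was possible because each condition was deposited as 1 value over its replicates, and for the same reason no replicate could be left out. The direction of each of the 7 members held with a pseudocount of 0.1 or 5 and under both scalings of EtOH, 28 of 28 values in all. The members' median of 0.73 became 0.32 with a pseudocount of 5, 0.61 with equal FPKM sums in both conditions, 0.79 with a median ratio of 1, 0.15 with no filter on low values and 0.44 with a filter of 5 FPKM. These scalings moved the median of all genes of at least 1 FPKM from -0.06 to -0.16 and to 0.00. At 2-fold on the log2(FPKM + 1) scale with no q-value, 1 member passed instead of 3. The same rule passed 5 genes where the q-value called 24 in proximal signalling, 1 against 6 among inhibitors, 8 against 14 among ITIM receptors, 9 against 15 among other activating receptors, 2 against 10 in phagocytosis, 5 against 11 among transcription factors and 1 against 5 in receptor modification. A deposited ratio of at least 1.5 left 4 called genes in phagocytosis and 3 in receptor modification. At the q-value alone, receptor modification had 4 called genes without Marcksl1, an alternative chosen after seeing the data. With 30-base words the shared part was 5.91% for Fcgr2b, 13.7% for Fcgr3, 1.47% for Fcgr4 and 2.07% for Fcer2a. Low FPKM limits Fcer1a, Fcgr1 and Fcer2a most.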
